A study of Mus musculus with 24 samples.

Results

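The 47 genes described here form the type I interferon response module of a study of CD4 T cells in lupus-prone mice, and were chosen as the rows of the count table whose Ensembl IDs map to a fixed list of symbols in GENCODE release M21. All 47 were found among the 39056 genes of the table, and all 47 were among the 18789 genes that passed the filter on low counts. The study sequenced total RNA of 4 sorted subsets: conventional (Tconv), regulatory (Treg), follicular helper (TFH) and follicular regulatory (TFR) T cells. Treated and control cells of each subset make 8 groups with 3 libraries each, 24 in all. Treated mice received OX40L, a ligand of the TNF family, and JAG1 (Jagged-1), a Notch ligand, each as recombinant mouse protein at 2 mg/kg into the peritoneum in 3 weekly injections. Control mice received PBS. All groups were female NZBWF1/j mice, the hybrid of the NZB and NZW strains that develops lupus with age, and their age is given as 23 weeks. The sources used here do not give the number of mice, any pooling or the sort gates. A p-value therefore covers the spread among the libraries alone, which may be technical. In such bulk samples fewer cells of a type and less RNA per cell cannot be told apart. The treatment cannot be told apart from any handling that differed between the arms.

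Type I interferons bind the receptor of Ifnar1 and Ifnar2, and the kinases Jak1 and Tyk2 then act on Stat2, which joins Irf9 in the factor ISGF3. ISGF3 binds interferon-stimulated response elements (ISRE) in the promoters of antiviral genes, while GAS elements answer to interferon-gamma, and many genes respond to both. A raised level of these transcripts in blood cells is a hallmark of human lupus, and loss of the type I interferon receptor lessens disease in NZB mice, a parent strain of the hybrid.

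Promoters are shown because ISGF3 and related factors bind these elements there. RefSeq (GRCm38.p6) held a promoter for 35 of the 47 genes, and the 250 bases before the start were searched for the ISRE core on both strands, spelled GAAA, any 2 bases, GAAA. The GAS core, TTCNNNGAA, reads the same on both strands and was searched too. The ISRE core was found in 16 of the 35 genes (45.7%), against 936 of all 27025 genes in the table (3.46%). The GAS core was found in 8 of the 35 (22.9%), against 2197 of 27025 (8.13%). Both were held by 4 members, in 1 of which the matches overlapped. The sequences below are those of the 3 genes with the smallest treatment p-value among those with an ISRE core, and of Sp100, which had the smallest without one. Capitals mark the matches, which are descriptions of the letters and no evidence of binding. Ifi203 is on the minus strand, and its 30 bases at chr1:173942508-173942537 hold 1 match, from -35 to -26 relative to the RefSeq start. They lie inside the longer GENCODE gene. Isg15 is on the minus strand (chr4:156200819-156201068), with 3 overlapping matches between -78 and -57. Ifit1 is on the plus strand (chr19:34640639-34640870), with 2 matches on the other strand, from -104 to -95 and from -85 to -76. Sp100 is on the plus strand (chr1:85649738-85649987). None of these 4 held the GAS core.
Ifi203: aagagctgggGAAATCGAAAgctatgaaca
Isg15: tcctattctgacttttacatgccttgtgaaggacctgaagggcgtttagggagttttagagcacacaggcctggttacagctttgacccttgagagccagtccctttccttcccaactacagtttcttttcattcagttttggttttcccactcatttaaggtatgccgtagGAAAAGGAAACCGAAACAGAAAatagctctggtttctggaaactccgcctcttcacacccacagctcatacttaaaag
Ifit1: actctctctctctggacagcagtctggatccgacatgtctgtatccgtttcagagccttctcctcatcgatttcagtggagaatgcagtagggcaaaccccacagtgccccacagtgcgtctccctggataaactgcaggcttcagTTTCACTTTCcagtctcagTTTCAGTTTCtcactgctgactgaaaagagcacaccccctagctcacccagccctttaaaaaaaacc
Sp100: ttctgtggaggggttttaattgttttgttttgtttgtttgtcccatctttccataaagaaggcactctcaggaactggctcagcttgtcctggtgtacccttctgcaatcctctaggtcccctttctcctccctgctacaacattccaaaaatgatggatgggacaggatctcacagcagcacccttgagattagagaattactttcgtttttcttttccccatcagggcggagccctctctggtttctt

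Libraries held 31.8 to 53.8 M (mega) counts in the treated groups. Control libraries held 24.7 to 33.2 M counts in Tconv and Treg cells, 2.54 to 15.2 M in TFH and 4.85 to 9.62 M in TFR cells. Foxp3 set the regulatory subsets apart, at 322 to 598 CPM (counts per M counts of the scaled library) in the 12 Treg and TFR libraries and at most 67.3 CPM in the others. Cxcr5 was at 42.6 to 285 CPM in the 12 TFH and TFR libraries and at most 46.1 CPM in the others, so that the highest treated Treg library reached above the lowest control TFR library. The sum of 5 follicular markers, Cxcr5 among them, was 159 to 184 CPM in treated and 333 to 385 CPM in control Treg, and 387 to 457 CPM in treated and 603 to 786 CPM in control TFR libraries. It was 767 to 895 CPM in treated and 746 to 893 CPM in control TFH libraries. Markers of CD4 T cells summed to 2725 to 4100 CPM in treated and 1699 to 2422 CPM in control libraries. Mitochondrially encoded genes took 2.00 to 2.75% of counts in the means of the treated groups and 10.3 to 16% in those of the control groups. Heat shock genes summed to 8100 to 21920 CPM in treated and 2216 to 5560 CPM in control libraries. Immediate early genes summed to 5696 to 16939 CPM in treated and 3063 to 4864 CPM in control libraries. Podocyte transcripts, which belong to kidney, reached 1368 CPM in sum in treated TFH 3, 526 CPM in treated TFR 1, 149.5 CPM in treated Treg 3, 1169 CPM in control Tconv 1 and 1131 CPM in control Tconv 2. The other 19 libraries held 3.99 to 61.2 CPM. Markers of CD8 and NK cells summed to 76.5 to 80.8 CPM in treated and 14.3 to 21.5 CPM in control Tconv, to 61.2 to 68.0 CPM in treated and 17.2 to 18.6 CPM in control Treg, and to 191 to 236 CPM in treated and 18 to 34.1 CPM in control TFR libraries, most of it Eomes in the treated ones. The part of these differences in the results was not tested.

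As a set, the 47 genes stood highest in treated Tconv and treated Treg cells and lowest, by the middle library of each group, in control TFH and TFR cells. Each gene's log2 CPM was centred on its mean over the 24 libraries, and the median of the 47 values was taken in every library. That median was 0.56, 0.51 and 0.53 in treated Tconv and 0.72, 0.66 and 0.53 in treated Treg libraries, against -0.24, -0.27 and 0.00 in control Tconv and 0.06, -0.05 and -0.01 in control Treg libraries. It was 0.19, 0.06 and 0.09 in treated TFH and 0.00, 0.13 and 0.18 in treated TFR libraries, against -0.36, -0.81 and -0.24 in control TFH and -0.23, -0.50 and -0.37 in control TFR libraries. The treated and control libraries of a subset did not overlap in this median in any of the 4 subsets. The median log2 fold change of treatment exceeded that of all genes in Tconv (0.79 against 0.02) and Treg cells (0.57 against 0.09). It did not in TFH (0.30 against 0.42) or TFR cells (0.36 against 0.40), so the separation there was no larger than the shift of all genes. From control Tconv to control TFH cells the median log2 fold change was -0.12, against -0.31 for all genes. Of the 47 genes, 20 had their highest mean in treated Tconv, 13 in treated Treg, 5 in treated TFH and 3 in treated TFR cells, and 6 in a control group. Per kilobase of exon in treated Tconv cells, Irf1 was the most abundant at 192 CPM per kb, followed by Ly6a at 83.5 and Ifi47 at 75.7 CPM per kb, and Oas1g the least at 0.0454 CPM per kb.

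**Figure D1:**
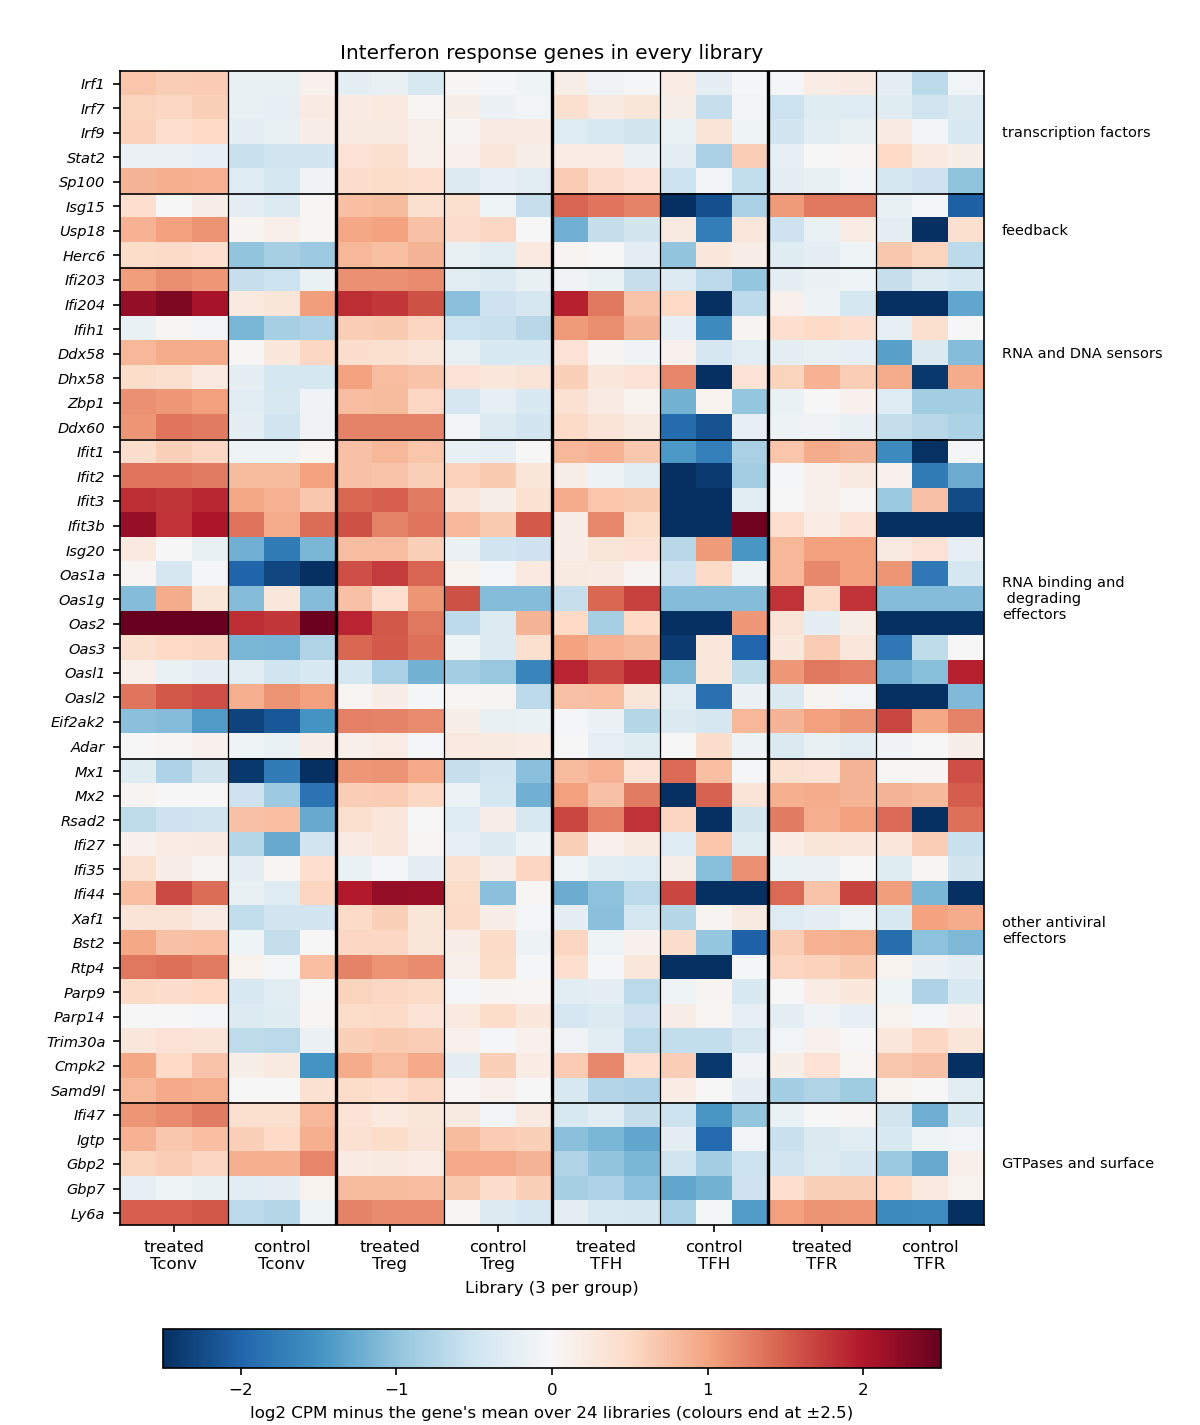
The 47 interferon response genes (rows, by role) in the 24 libraries (columns, by subset with treated before control), as log2 CPM centred on each gene's mean. Treated Tconv and Treg columns are mostly above the mean, and control TFH and TFR columns are mostly below it, with several genes at 0 reads.

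Over the 4 comparisons of treated with control mice, 30 of the 47 genes (63.8%) rose in at least 1 subset and 4 (8.51%) fell in at least 1, at an adjusted p under 0.05 in edgeR's quasi-likelihood test. Of all 18789 genes tested, 28.2% rose and 12.4% fell in at least 1 subset. Sp100 and Zbp1 rose in all 4 subsets, though in TFR cells 11 of 14 alternatives kept the Sp100 call and 3 the Zbp1 call. A further 4 genes rose in 3 subsets, 10 in 2 and 14 in 1. Samd9l rose in Tconv and Treg and fell in TFH and TFR cells, Irf9 rose in Tconv and fell in TFH cells, and 15 genes passed the test in none. Of the called members, 2 of 19 in Tconv, 6 of 13 in Treg, 5 of 12 in TFH and 5 of 15 in TFR cells kept the call under all 14 alternatives tried.

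**Figure D2:**
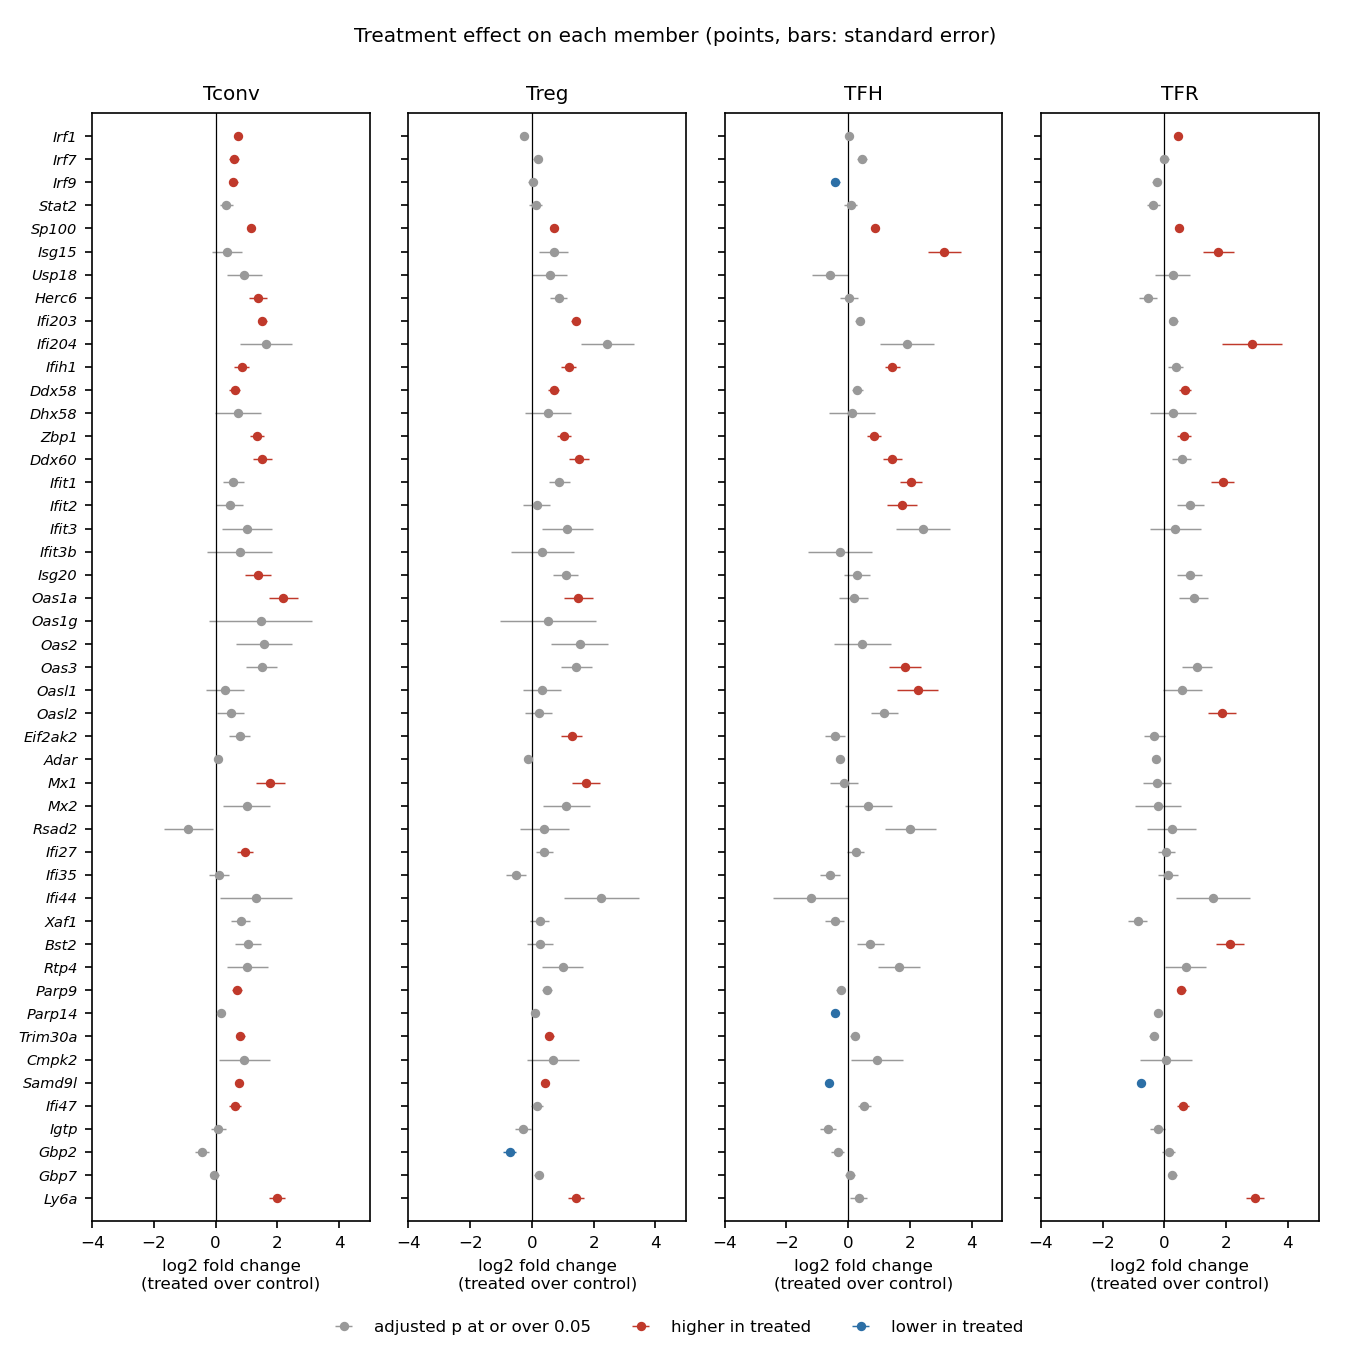
Log2 fold change of treated over control libraries (points, bars: standard error) for each of the 47 genes in each subset, with genes that rose in red and genes that fell in blue. Genes with no read in a group (Oas1g in TFH and TFR, Ifit3b and Oas2 in TFR cells) are not drawn; the red points are most numerous in Tconv, and the blue Samd9l points lie in TFH and TFR cells.

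In Tconv cells the response rose broadly. Of the 47 genes 19 rose (40.4%) and none fell, against 6.89% and 3.05% of all genes tested, and the median log2 fold change was 0.79 against 0.02 for all genes. Without the call, 38 genes had every treated library above every control library and 1 the reverse, against 27.5% and 15.4% of all genes. Of the 5 transcription factors 4 rose, and so did 5 of the 7 RNA and DNA sensors, led by Ifi203. Of the 13 RNA binding and degrading effectors 2 passed the test as higher (15.4%). All 13 had a positive log2 fold change, with a median of 0.77, and 11 had every treated library above every control library. Without the 5 libraries with podocyte transcripts, which leaves control Tconv 3 as the only control of this subset and assumes that it varies like the other groups, Ifi203 and Sp100 were called and none fell. The count was 11 without control Tconv 1 and 12 without control Tconv 2, and 32 higher and 1 lower when only the 6 Tconv libraries were fitted.

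In Treg cells 12 of the 47 genes rose (25.5%) and 1 fell, against 5.17% and 3.56% of all genes, with a median log2 fold change of 0.57 against 0.09. The groups did not overlap for 30 higher and 4 lower genes, against 27.4% and 19% of all genes. The sensors again made up much of the change, with 5 of 7 higher, whereas Sp100 was the only one of the 5 transcription factors that rose. Gbp2, a GTPase that acts against intracellular parasites, was the gene that fell: it was at 91.2, 92.6 and 89.7 CPM in treated Treg, against 153, 152 and 143 CPM in control Treg libraries (log2 fold change -0.71 ± 0.22, adjusted p = 0.041). That call was lost without treated Treg 1, treated Treg 2, treated Treg 3, control Treg 1, control Treg 2 or control Treg 3 (adjusted p from 2e-06 to 0.18 over 14 alternatives). It was also lost with mitochondrial genes left out of the scaling and without the 5 libraries with podocyte transcripts. The number that rose was 7 without treated Treg 1, 6 without treated Treg 2, 6 without control Treg 2 and 7 without control Treg 3, 7 without the 5 libraries with podocyte transcripts, and 29 (with 5 lower) when only the 6 Treg libraries were fitted.

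In TFH cells 9 of the 47 genes rose (19.1%) and 3 fell, against 16.5% and 5.86% of all genes, so neither share stood far from the background. The median log2 fold change of 0.30 lay below the 0.42 of all genes. The groups did not overlap for 15 higher and 3 lower genes, against 28.5% and 6.81% of all genes. The genes that rose included Isg15, Ifit1, Ifit2 and the sensor Ifih1, and those that fell were Samd9l, Parp14 and Irf9. The count of higher genes was 14 without control TFH 3 and 4 (with 1 lower) when only the 6 TFH libraries were fitted, and 13 higher and 2 lower with mitochondrial genes left out of the scaling. Markers of CD8 and NK cells summed to 443 to 601 CPM in treated and 38.5 to 46.7 CPM in control TFH libraries, with reads for 3 of the 6 markers in both and Cd8a, Ncr1 and Klra8 at 0 in both; most of the sum was Eomes, and its part in the result was not tested. Markers of plasma cells summed to 313 to 358 CPM in treated and 152 to 180 CPM in control TFH libraries, with Jchain at 147 to 201 CPM in treated and 13.9 to 26.3 CPM in control TFH libraries. Of the 5 plasma cell markers Tnfrsf17 was at 0 in every control TFH library and at most 1.28 CPM in the treated ones, and their part was not tested either.

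In TFR cells 14 of the 47 genes rose (29.8%) and 1 fell, against 15.6% and 6.39% of all genes, with a median log2 fold change of 0.36 against 0.40 for all genes. The groups did not overlap for 21 higher and 5 lower genes, against 33% and 10.4% of all genes. Ly6a changed most clearly, and Samd9l was the gene that fell. The count of higher genes was 8 without treated TFR 3, 9 without control TFR 2 and 5 (with 2 lower) when only the 6 TFR libraries were fitted. Lower genes numbered 2 without control TFR 1 or 3, and with relative log expression factors in place of TMM 13 genes were higher and 5 lower. Markers of plasma cells summed to 360.0 to 398 CPM in treated and 164 to 206 CPM in control TFR libraries, with Jchain at 104 to 114 CPM in treated and 2.81 to 7.01 CPM in control TFR libraries. Tnfrsf17 was at most 0.275 CPM in treated and 0 in control TFR libraries, and the part of these cells in the results was not tested.

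Among the transcription factors, Sp100 (ENSMUSG00000026222.16, chr1:85649988-85709998, plus strand, mm10), a component of PML nuclear bodies, rose in every subset. It was at 538, 560.0 and 544 CPM in treated Tconv, against 237, 220.5 and 279.7 CPM in control Tconv libraries. The corresponding Treg values were 405, 411 and 397 CPM in treated Treg, against 234, 259 and 244 CPM in control Treg libraries. In neither subset did the groups overlap (log2 fold change 1.16 ± 0.14, adjusted p = 2.7e-06 in Tconv and log2 fold change 0.72 ± 0.13, adjusted p = 0.00095 in Treg cells). TFH cells had 462, 403 and 378 CPM in treated TFH, against 205, 283 and 194 CPM in control TFH libraries. TFR cells had 251, 263 and 286 CPM in treated TFR, against 219, 207 and 148 CPM in control TFR libraries. In both, every treated library lay above every control library (log2 fold change 0.87 ± 0.14, adjusted p = 9.5e-05 in TFH and log2 fold change 0.47 ± 0.14, adjusted p = 0.015 in TFR cells). The TFR call was lost without treated TFR 3 or control TFR 3 (adjusted p from 0.0028 to 0.087 over 14 alternatives).

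Irf1, which is induced by both kinds of interferon and drives GAS and ISRE genes, rose in Tconv and TFR cells. It was at 791, 744 and 755 CPM in treated Tconv, against 431, 433 and 525 CPM in control Tconv libraries (log2 fold change 0.72 ± 0.13, adjusted p = 0.00047). TFR cells had 479, 554 and 574 CPM in treated TFR, against 414, 305 and 464 CPM in control TFR libraries (log2 fold change 0.44 ± 0.13, adjusted p = 0.016). This call was lost without treated TFR 2, treated TFR 3 or control TFR 2 (adjusted p from 0.0021 to 0.12 over 14 alternatives). Treated and control values did not overlap in these 2 subsets. Treg cells showed the opposite order, with 411, 431 and 369.8 CPM in treated Treg, against 498, 479 and 455 CPM in control Treg libraries, which did not pass the test (log2 fold change -0.24 ± 0.13, adjusted p = 0.33). In TFH cells the groups overlapped, with 538, 463 and 473 CPM in treated TFH, against 555, 412 and 473 CPM in control TFH libraries.

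Irf9, the DNA-binding part of ISGF3, rose in Tconv and fell in TFH cells. It was at 160.5, 144 and 150.5 CPM in treated Tconv, against 90.4, 94.5 and 121 CPM in control Tconv libraries (log2 fold change 0.57 ± 0.14, adjusted p = 0.01). It was at 85.6, 80.8 and 78 CPM in treated TFH, against 95.8, 134 and 99.6 CPM in control TFH libraries (log2 fold change -0.42 ± 0.14, adjusted p = 0.039). Neither pair of groups overlapped. The Tconv call was lost without treated Tconv 1, control Tconv 1 or control Tconv 2 (adjusted p from 0.0023 to 0.88 over 14 alternatives). The TFH call was lost without treated TFH 2, treated TFH 3 or control TFH 2 (adjusted p from 0.0042 to 0.19 over 14 alternatives). In Treg cells the values were 124, 125 and 118 CPM in treated Treg, against 112, 124 and 124 CPM in control Treg libraries, and in TFR cells 76.8, 88.7 and 94.2 CPM in treated TFR, against 123, 103 and 82.2 CPM in control TFR libraries, and both pairs overlapped. Irf9 shares exon positions with Rnf31 on the same strand, so reads of the 2 genes may be split wrongly.

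Irf7, which amplifies interferon production, rose in Tconv cells. It was at 72, 69.9 and 74.1 CPM in treated Tconv, against 43.2, 42.6 and 56.1 CPM in control Tconv libraries (log2 fold change 0.61 ± 0.16, adjusted p = 0.014). That call was lost without treated Tconv 3, control Tconv 1 or control Tconv 2 (adjusted p from 0.00021 to 0.96 over 14 alternatives). TFH cells had 64.7, 56.8 and 60.5 CPM in treated TFH, against 54, 32.8 and 46.5 CPM in control TFH libraries, without overlap but short of the threshold (log2 fold change 0.44 ± 0.16, adjusted p = 0.053). The groups overlapped in Treg cells, with 56.4, 57.7 and 50.6 CPM in treated Treg, against 54.2, 44.2 and 46.7 CPM in control Treg libraries, and in TFR cells, with 33.6, 39.6 and 39.3 CPM in treated TFR, against 39.6, 34.5 and 38.3 CPM in control TFR libraries. Stat2, the partner of Irf9 in ISGF3, passed the test in no subset. It was at 76.9, 76.8 and 73.5 CPM in treated Tconv, against 57.3, 60 and 61.1 CPM in control Tconv libraries, which did not overlap (log2 fold change 0.35 ± 0.21, adjusted p = 0.34). It was at 109, 113 and 93 CPM in treated Treg, against 91.8, 103 and 94.3 CPM in control Treg libraries. TFH cells had 96.8, 96.7 and 77.1 CPM in treated TFH, against 73, 48.3 and 131 CPM in control TFH libraries, where control TFH 2 was lowest and control TFH 3 highest. TFR cells had 73.8, 85 and 87 CPM in treated TFR, against 119, 101 and 94.3 CPM in control TFR libraries, with all treated values below all control values (log2 fold change -0.36 ± 0.21, adjusted p = 0.23).

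The feedback genes act through ISG15: Isg15 is a ubiquitin-like protein attached to other proteins, Herc6 is the ligase that attaches it in mice, and Usp18 removes it and blocks the receptor. Isg15 rose in the 2 follicular subsets. It was at 54.3, 50.3 and 46.9 CPM in treated TFH, against 1.04, 4.25 and 11.3 CPM in control TFH libraries (log2 fold change 3.11 ± 0.53, adjusted p = 0.00026), where control TFH 3 was the highest control. TFR cells had 41.5, 49.4 and 49.7 CPM in treated TFR, against 17.4, 19.5 and 4.74 CPM in control TFR libraries (log2 fold change 1.74 ± 0.50, adjusted p = 0.015). That call was lost without control TFR 3 (adjusted p from 0.002 to 0.061 over 14 alternatives). In Tconv cells the groups overlapped, with 26.5, 19.7 and 22.4 CPM in treated Tconv, against 16.8, 15.7 and 20.4 CPM in control Tconv libraries. Treg cells had 33.5, 34.4 and 26.1 CPM in treated Treg, against 26.1, 18.4 and 13.3 CPM in control Treg libraries, where treated Treg 3 and control Treg 1 lay next to each other (log2 fold change 0.70 ± 0.48, adjusted p = 0.49). Herc6 rose in Tconv cells, at 38 ± 0.841 CPM in treated and 14.7 ± 0.823 CPM in control Tconv libraries (means ± SD, n = 3 each, as throughout; log2 fold change 1.37 ± 0.29, adjusted p = 0.0029).

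Usp18 passed the test in no subset. It was at 16.7, 18.4 and 19.8 CPM in treated Tconv, against 9.58, 9.95 and 9.31 CPM in control Tconv libraries. It was at 17.8, 18.2 and 15.1 CPM in treated Treg, against 12.3, 12.9 and 9.09 CPM in control Treg libraries. Both pairs were free of overlap, but the log2 fold changes of 0.93 ± 0.57 and 0.57 ± 0.56 had adjusted p-values of 0.34 and 0.69. TFH cells had 3.92, 6 and 6.57 CPM in treated TFH, against 10.6, 2.7 and 11 CPM in control TFH libraries. TFR cells had 6.36, 8.11 and 10.3 CPM in treated TFR, against 7.74, 0.98 and 11.9 CPM in control TFR libraries, where the control values spanned the treated ones.

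**Figure D3:**
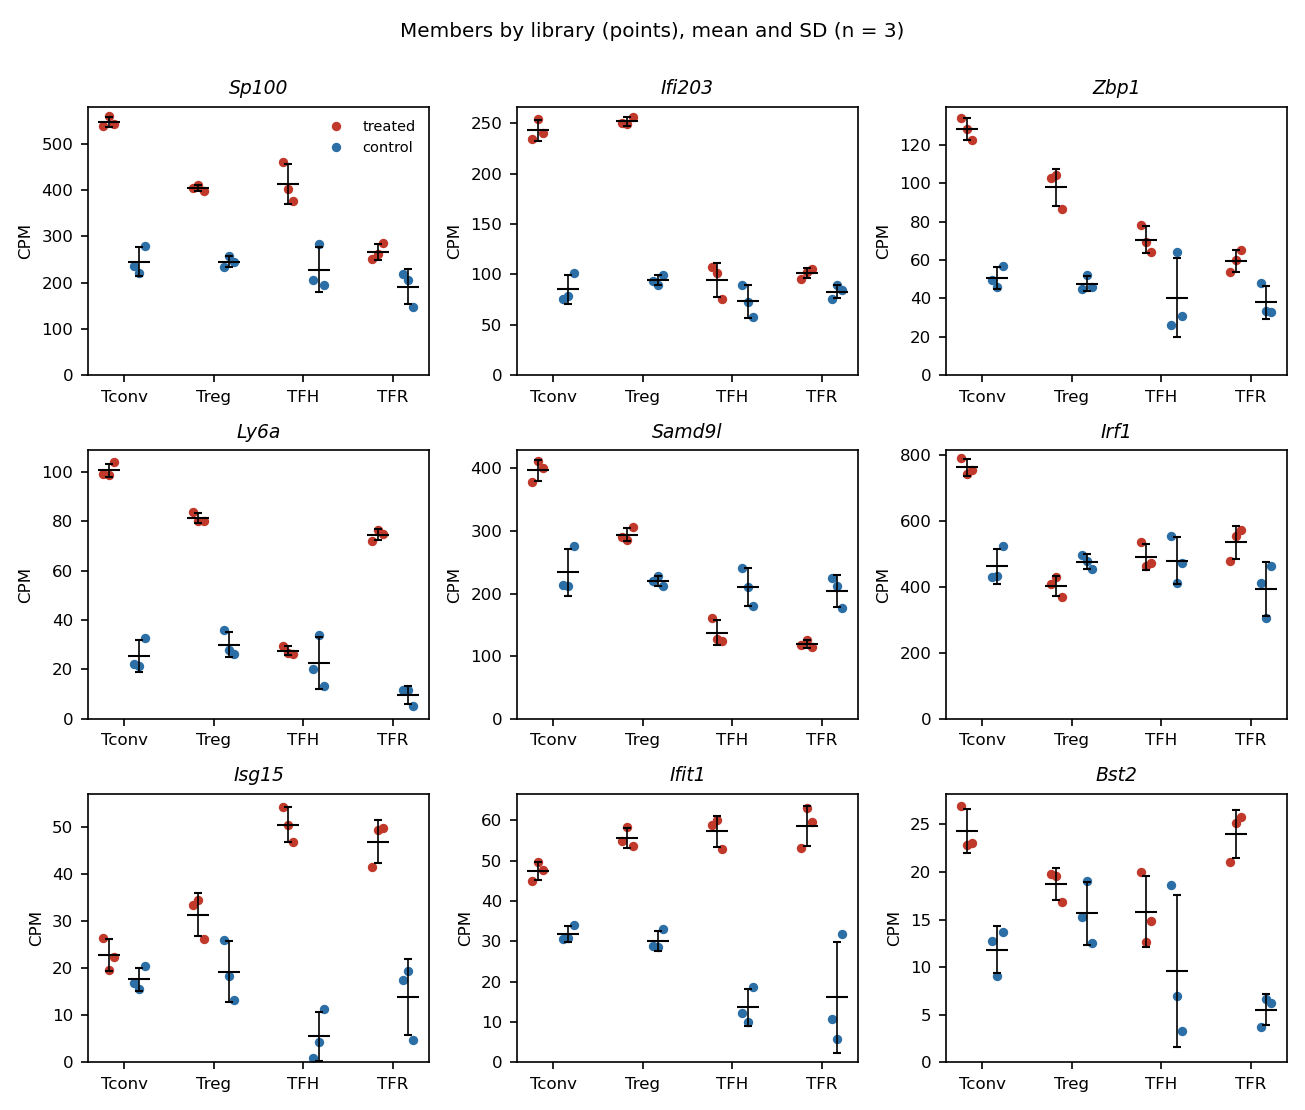
CPM of 9 genes in each library (points; bars: mean and SD, n = 3) by subset, treated left of control. Sp100 and Zbp1 are higher in treated cells of every subset, Ifi203 and Irf1 are highest in treated Tconv or Treg cells, Isg15 and Ifit1 separate most in TFH and TFR cells, and Samd9l is higher in treated Tconv and Treg but lower in treated TFH and TFR cells.

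The RNA and DNA sensors held the member with the smallest p in Tconv and Treg cells, Ifi203, a DNA-binding protein of the PYHIN family (ENSMUSG00000039997.16, chr1:173920407-173942672, minus strand, mm10). Ifi203 was at 234, 254 and 240.2 CPM in treated Tconv, against 75.7, 78.4 and 101 CPM in control Tconv libraries (log2 fold change 1.51 ± 0.14, adjusted p = 1.2e-07). It was at 249.9, 249 and 256 CPM in treated Treg, against 93.9, 89.4 and 99.2 CPM in control Treg libraries (log2 fold change 1.42 ± 0.14, adjusted p = 4.4e-07). Treated and control values were far apart in both subsets. TFH cells had 107, 102 and 75.7 CPM in treated TFH, against 89.7, 72.2 and 57.7 CPM in control TFH libraries, with overlap. TFR cells had 95.8, 102 and 105 CPM in treated TFR, against 75.7, 89.1 and 84.1 CPM in control TFR libraries, without overlap but at a log2 fold change of 0.29 ± 0.14 and an adjusted p of 0.15. Ifi203 shares exon positions with Mndal, another PYHIN gene on the same strand.

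Zbp1, which senses Z-form nucleic acid and can start necroptosis, rose in every subset. It was at 134, 128 and 123 CPM in treated Tconv, against 49.4, 45.9 and 56.8 CPM in control Tconv libraries (log2 fold change 1.34 ± 0.22, adjusted p = 0.00021). It was at 103, 104 and 86.8 CPM in treated Treg, against 45.1, 52 and 46.1 CPM in control Treg libraries (log2 fold change 1.03 ± 0.22, adjusted p = 0.0034). The follicular subsets differed less, with 78.2, 69.4 and 64.2 CPM in treated TFH, against 26.4, 64.1 and 30.8 CPM in control TFH libraries (log2 fold change 0.84 ± 0.23, adjusted p = 0.011), where treated TFH 3 and control TFH 2 all but met. TFR cells had 53.7, 59.8 and 65.1 CPM in treated TFR, against 48, 33.2 and 33 CPM in control TFR libraries (log2 fold change 0.64 ± 0.22, adjusted p = 0.043). The TFH call was lost without control TFH 1 or control TFH 3 (adjusted p from 9.7e-06 to 0.23 over 14 alternatives). The TFR call was lost without treated TFR 1, treated TFR 2, treated TFR 3, control TFR 2 or control TFR 3 (adjusted p from 0.015 to 0.13 over 14 alternatives).

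Ifih1, which encodes MDA5, the receptor for long double-stranded RNA, rose in Tconv, Treg and TFH cells. It was at 110.5, 114 and 104 CPM in treated Treg, against 49.6, 49.1 and 44.6 CPM in control Treg libraries (log2 fold change 1.20 ± 0.24, adjusted p = 0.0017). It was at 152, 163 and 131 CPM in treated TFH, against 62.2, 23.9 and 76 CPM in control TFH libraries (log2 fold change 1.43 ± 0.24, adjusted p = 0.00023). Tconv cells had 64.5, 74.3 and 68.9 CPM in treated Tconv, against 32.7, 40.8 and 42 CPM in control Tconv libraries (log2 fold change 0.85 ± 0.24, adjusted p = 0.024). This call was lost without treated Tconv 2, treated Tconv 3, control Tconv 1 or control Tconv 2 (adjusted p from 0.0025 to 0.66 over 14 alternatives). TFR cells had 97.1, 102 and 97 CPM in treated TFR, against 62.5, 95.5 and 72.2 CPM in control TFR libraries, without overlap and short of the threshold (log2 fold change 0.36 ± 0.24, adjusted p = 0.28). Ddx60, a helicase that assists these receptors, rose in the same 3 subsets, with means of 33.7 ± 2.91 CPM in treated and 11.9 ± 9.62 CPM in control TFH libraries (log2 fold change 1.43 ± 0.32, adjusted p = 0.0028). Ddx58, which encodes RIG-I, rose in Tconv, Treg and TFR cells by log2 fold changes of 0.62, 0.70 and 0.66. The Ddx58 call in Tconv cells was lost without any 1 of the 6 Tconv libraries but control Tconv 3 (adjusted p from 0.0097 to 0.95 over 14 alternatives). That Tconv call was also lost with relative log expression factors, mitochondrial genes left out of the scaling, a replicate block or thinned counts. The Treg call of Ddx58 was lost without treated Treg 1, treated Treg 2, control Treg 2 or control Treg 3 (adjusted p from 3.8e-05 to 0.081), and its TFR call without control TFR 1 or control TFR 3 (adjusted p from 0.00022 to 0.16). Dhx58, which encodes LGP2, passed the test in none.

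Of the 13 RNA binding and degrading effectors, 2 rose in Tconv, 2 in Treg, 4 in TFH and 4 in TFR cells, and none fell. These shares were 15.4, 15.4, 30.8 and 30.8% in that order, against 6.89, 5.17, 16.5 and 15.6% of all genes. Every treated library lay above every control library for 11, 7, 7 and 7 of the 13, against 27.5, 27.4, 28.5 and 33% of all genes. Ifit1, which binds RNA that lacks the host cap methylation, was among the 4 that rose in TFH and the 4 that rose in TFR cells. It was at 58.8, 60.2 and 52.9 CPM in treated TFH, against 12.2, 10.04 and 18.8 CPM in control TFH libraries (log2 fold change 2.03 ± 0.36, adjusted p = 0.00039). It was at 53.2, 62.9 and 59.5 CPM in treated TFR, against 10.8, 5.88 and 31.8 CPM in control TFR libraries (log2 fold change 1.88 ± 0.36, adjusted p = 0.00065), where control TFR 3 was the highest control. Tconv cells had 45.1, 49.7 and 47.6 CPM in treated Tconv, against 30.5, 30.8 and 34.1 CPM in control Tconv libraries. Treg cells had 54.9, 58.4 and 53.6 CPM in treated Treg, against 28.8, 28.6 and 33 CPM in control Treg libraries. The groups did not overlap there either, but the log2 fold changes of 0.58 ± 0.34 and 0.88 ± 0.34 did not pass the test (adjusted p = 0.33 and 0.14).

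Ifit3 passed the test in no subset. It was at 20.2, 19.4 and 20.9 CPM in treated Tconv, against 10.9, 10.2 and 8.93 CPM in control Tconv libraries. It was at 15.2, 15.7 and 13.8 CPM in treated Treg, against 6.67, 6.21 and 7.23 CPM in control Treg libraries, without overlap. TFH cells had 10.7, 9.02 and 8.79 CPM in treated TFH, against 0, 0 and 4.56 CPM in control TFH libraries. TFR cells had 5.55, 6.09 and 5.69 CPM in treated TFR, against 2.9, 9.37 and 1.14 CPM in control TFR libraries. Its near copy Ifit3b had 233 reads in treated and 0 in control TFR libraries, which is at least 14.3-fold higher with 3 reads in all taken as the limit that a count of 0 allows. Reads can be split wrongly between the copies. Oas2, one of the synthetases of the oligoadenylate messenger that activates RNase L, had 226 reads in treated and 0 in control TFR libraries, at least 13.9-fold higher. Both passed the test (adjusted p = 0.0054 and 0.0028), with treated means of 1.74 and 1.7 CPM. Oas1g had 25 reads in treated and 0 in control TFH libraries (at least 1.91-fold higher), and 43 in treated and 0 in control TFR libraries (at least 2.64-fold higher), and passed the test in neither. With 0 reads, those control libraries could not carry Oas1g through the low-count filter. The direction of its differences may therefore not be independent of that filter. Oas1a instead rose in Tconv and Treg cells, at 10.1 ± 1.69 CPM in treated and 2.2 ± 0.512 CPM in control Tconv libraries (log2 fold change 2.20 ± 0.48, adjusted p = 0.0035). Its Treg call was lost without any 1 of the 6 Treg libraries (adjusted p from 6.2e-06 to 0.16 over 14 alternatives).

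The 14 other antiviral effectors included Samd9l (ENSMUSG00000047735.14, chr6:3372257-3399572, minus strand, mm10), a growth-restricting factor that blocks protein synthesis of poxviruses, which rose in Tconv and Treg and fell in TFH and TFR cells. It was at 379, 412 and 400.1 CPM in treated Tconv, against 213, 212 and 276 CPM in control Tconv libraries (log2 fold change 0.76 ± 0.12, adjusted p = 0.00012). It was at 291, 286 and 306 CPM in treated Treg, against 219, 228 and 211 CPM in control Treg libraries (log2 fold change 0.42 ± 0.12, adjusted p = 0.03). In the follicular subsets it was at 161, 128 and 125 CPM in treated TFH, against 242, 210.1 and 179.8 CPM in control TFH libraries (log2 fold change -0.61 ± 0.12, adjusted p = 0.0011). It was at 118, 126 and 115 CPM in treated TFR, against 224, 212 and 176 CPM in control TFR libraries (log2 fold change -0.77 ± 0.12, adjusted p = 8.5e-05). None of the 4 pairs overlapped. The Treg call was lost without treated Treg 1, treated Treg 2, treated Treg 3, control Treg 1, control Treg 2 or control Treg 3 (adjusted p from 0.00014 to 0.11 over 14 alternatives).

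Bst2, or tetherin, which holds budding virions at the cell surface, rose in TFR cells. It was at 21.1, 25.2 and 25.7 CPM in treated TFR, against 3.68, 6.64 and 6.25 CPM in control TFR libraries (log2 fold change 2.12 ± 0.44, adjusted p = 0.0014). Tconv cells had 26.9, 22.9 and 23 CPM in treated Tconv, against 12.8, 9.02 and 13.7 CPM in control Tconv libraries, also without overlap but short of the threshold (log2 fold change 1.04 ± 0.42, adjusted p = 0.13). Treg cells had 19.7, 19.6 and 16.8 CPM in treated Treg, against 15.3, 19.1 and 12.6 CPM in control Treg libraries. TFH cells had 19.98, 12.7 and 14.8 CPM in treated TFH, against 18.6, 6.95 and 3.33 CPM in control TFH libraries, and both pairs overlapped.

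Mx1, a dynamin-like GTPase against influenza virus, rose in Tconv and Treg cells at low levels. It was at 6.67, 4.8 and 6.04 CPM in treated Tconv, against 1.51, 2.43 and 1.2 CPM in control Tconv libraries (log2 fold change 1.77 ± 0.47, adjusted p = 0.016). It was at 17.6, 18.2 and 15.9 CPM in treated Treg, against 5.5, 5.92 and 3.97 CPM in control Treg libraries (log2 fold change 1.75 ± 0.46, adjusted p = 0.018). The Tconv call was lost without treated Tconv 1, control Tconv 1 or control Tconv 3 (adjusted p from 0.0011 to 0.26 over 14 alternatives). The Treg call was lost without treated Treg 1, treated Treg 2, control Treg 1, control Treg 2 or control Treg 3 (adjusted p from 2.5e-05 to 0.098 over 14 alternatives). TFH cells had 14.3, 15.1 and 10.5 CPM in treated TFH, against 22.2, 13.9 and 7.96 CPM in control TFH libraries. TFR cells had 10.8, 10.5 and 14.9 CPM in treated TFR, against 8.42, 8.6 and 25.6 CPM in control TFR libraries, with overlap in both. Ifi27, a small membrane protein of mitochondria and the nuclear envelope, was at 36.1, 37.9 and 38.4 CPM in treated Tconv, against 20.3, 14 and 23.8 CPM in control Tconv libraries (log2 fold change 0.95 ± 0.27, adjusted p = 0.028). That call was lost without treated Tconv 1, treated Tconv 2, treated Tconv 3, control Tconv 1 or control Tconv 2 (adjusted p from 0.0091 to 0.9 over 14 alternatives). It was at 38.7, 40.2 and 34.8 CPM in treated Treg, against 29.1, 26.2 and 30.8 CPM in control Treg libraries, and at 50.4, 36.2 and 39.2 CPM in treated TFH, against 26.6, 54.1 and 27.1 CPM in control TFH libraries. It was at 37.8, 41.6 and 40.7 CPM in treated TFR, against 40.9, 51.6 and 22.7 CPM in control TFR libraries, and passed the test in none of these. Parp14, an ADP-ribosyltransferase, fell in TFH cells, at 141 ± 8.58 CPM in treated and 192 ± 24.8 CPM in control TFH libraries (log2 fold change -0.44 ± 0.11, adjusted p = 0.0054).

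Among the GTPases and surface proteins, Ly6a, or Sca-1 (ENSMUSG00000075602.10, chr15:74994877-74998031, minus strand, mm10), a surface protein of activated T cells, rose in 3 subsets. It was at 99.2, 98.7 and 104 CPM in treated Tconv, against 22.1, 21.4 and 32.8 CPM in control Tconv libraries (log2 fold change 1.98 ± 0.27, adjusted p = 1.9e-05). It was at 83.8, 80.3 and 79.9 CPM in treated Treg, against 35.9, 27.9 and 26.3 CPM in control Treg libraries (log2 fold change 1.44 ± 0.27, adjusted p = 0.00085). Treated values lay far above control values in both. TFR cells had 72.2, 76.5 and 74.9 CPM in treated TFR, against 11.7, 11.9 and 5.3 CPM in control TFR libraries (log2 fold change 2.93 ± 0.29, adjusted p = 1.9e-07). In TFH cells the groups overlapped, with 29.7, 26.7 and 26.3 CPM in treated TFH, against 20.2, 34 and 13.4 CPM in control TFH libraries (log2 fold change 0.34 ± 0.27, adjusted p = 0.37). Igtp, an immunity-related GTPase induced by interferon-gamma, passed the test in no subset. It was at 158, 139 and 147 CPM in treated Tconv, against 130.4, 122 and 164 CPM in control Tconv libraries. It was at 113, 119 and 109 CPM in treated Treg, against 150.1, 135 and 131 CPM in control Treg libraries, with the treated Treg values all below the control ones. TFH cells had 42.2, 39.1 and 35.4 CPM in treated TFH, against 73.5, 22.4 and 82.3 CPM in control TFH libraries. TFR cells had 58.7, 67.4 and 71.2 CPM in treated TFR, against 66.7, 80.1 and 83.2 CPM in control TFR libraries. Igtp shares exon positions with Irgm2 on the same strand.

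The treatment effects themselves differed between subsets for part of the module. These comparisons, and those of the subsets below, use the same libraries as the treatment comparisons and are no independent evidence for them. Set against the effect in Tconv cells, the effect in TFH cells was higher for 2 of the 47 genes and lower for 10, against 14.4% and 5.22% of all genes, and the median difference was -0.36 against 0.34 for all genes. The 10 lower genes were Samd9l, Ifi203, Irf9, Ly6a, Parp9, Parp14, Irf1, Herc6, Oas1a and Mx1, and the 2 higher were Isg15 and Ifit1. Samd9l differed by -1.37 ± 0.17 on the log2 scale (adjusted p = 2.7e-05), Ifi203 by -1.14 ± 0.20 (adjusted p = 0.001) and Isg15 by 2.73 ± 0.71 (adjusted p = 0.014). Without the 5 libraries with podocyte transcripts Samd9l alone passed the test. Without control TFH 3, 8 genes were higher, and without 8 of the other libraries 1 was.

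Set against the effect in Treg cells, the effect in TFR cells was higher for 3 of the 47 genes and lower for 5, against 5.24% and 2.26% of all genes, with a median of -0.25 against 0.29. Samd9l again differed most clearly, by -1.20 ± 0.17 (adjusted p = 0.00023), followed by Ifi203 at -1.13 ± 0.20 (adjusted p = 0.0015) and Trim30a at -0.92 ± 0.20 (adjusted p = 0.008). Trim30a, an E3 ligase that restrains NF-kB signals, was at 105, 110.2 and 107 CPM in treated Treg, against 75.3, 67.6 and 74.7 CPM in control Treg libraries. It was at 66.7, 75.7 and 69.1 CPM in treated TFR, against 85.1, 99.3 and 85.8 CPM in control TFR libraries. It rose in Treg cells (log2 fold change 0.57 ± 0.14, adjusted p = 0.014), a call lost without treated Treg 2 or control Treg 2 (adjusted p from 9.5e-05 to 0.076 over 14 alternatives). In TFR cells every treated value lay below every control value, without passing the test (log2 fold change -0.35 ± 0.14, adjusted p = 0.085). Ly6a went the other way, by 1.49 ± 0.38 (adjusted p = 0.019), and that call was lost without treated Treg 3 or control Treg 1 (adjusted p from 0.0016 to 0.1 over 20 alternatives). The calls of Samd9l, Ifi203 and Trim30a held under all 20 alternatives. Higher members numbered 6 without control TFR 3, 0 without treated Treg 3 or control Treg 1, and 1 without treated Treg 1, treated TFR 2 or treated TFR 3, and lower ones 3 without 8 of the 12 libraries.

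In treated mice TFH cells differed from Tconv cells mainly in lower levels. There 19 of the 47 genes were lower in TFH (40.4%) and 2 were higher, against 7.77% and 10.3% of all genes, with a median log2 fold change of -0.64 against 0.14. In control mice 9 were lower and 6 higher, against 15.1% and 9.89%, and the median log2 fold change of -0.12 lay above the -0.31 of all genes. Without overlap, 31 genes were lower and 11 higher in treated TFH cells, against 26.3% and 28.6% of all genes. Lower in both arms were Ifit2 and the GTPases Ifi47, Gbp2, Igtp and Gbp7, which interferon-gamma induces. The Ifit2 call in treated mice was lost without any 1 of the 6 treated libraries (adjusted p from 4.3e-05 to 0.16 over 14 alternatives). Ifi47 was at 63.2, 68 and 54 CPM in treated TFH, against 177, 186 and 198 CPM in treated Tconv libraries (log2 fold change -1.60 ± 0.20, adjusted p = 2.9e-06). It was at 56.1, 29.7 and 41.1 CPM in control TFH, against 108, 108 and 147 CPM in control Tconv libraries (log2 fold change -1.50 ± 0.20, adjusted p = 9.4e-06). Gbp2 was at 46.7, 39.8 and 35.9 CPM in treated TFH, against 117, 121 and 115 CPM in treated Tconv libraries (log2 fold change -1.53 ± 0.22, adjusted p = 2.2e-05). It was at 56, 44 and 54.2 CPM in control TFH, against 147, 147 and 185 CPM in control Tconv libraries (log2 fold change -1.63 ± 0.22, adjusted p = 1.3e-05). In neither arm did the subsets overlap for these 2 genes.

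In treated mice the largest differences of TFH from Tconv cells were the lower Oas2 (log2 fold change -3.49 ± 0.99, adjusted p = 0.019), Igtp (log2 fold change -1.93 ± 0.26, adjusted p = 8.1e-06) and Ly6a (log2 fold change -1.87 ± 0.27, adjusted p = 2.2e-05), and the higher Oasl1 (log2 fold change 1.93 ± 0.64, adjusted p = 0.041) and Ifih1 (log2 fold change 1.10 ± 0.24, adjusted p = 0.0019). Samd9l, at -1.53, Ifi203, at -1.36, and Irf9, at -0.90, had adjusted p-values of 5.4e-09, 2.9e-07 and 7.9e-05. The Oasl1 call was lost without treated Tconv 1, treated Tconv 2, treated Tconv 3, treated TFH 1, treated TFH 2 or treated TFH 3 (adjusted p from 9.4e-05 to 0.16 over 14 alternatives). The Oas2 call was lost without treated Tconv 3 or treated TFH 2 (adjusted p from 9.8e-06 to 0.079 over 14 alternatives). Leaving out any of the 6 treated libraries left 1 higher member. In control mice Mx1 (log2 fold change 3.10 ± 0.49, adjusted p = 7.8e-05), Oas1a (log2 fold change 2.32 ± 0.49, adjusted p = 0.0015) and Eif2ak2 (log2 fold change 2.11 ± 0.35, adjusted p = 0.00012) were higher in TFH cells, and Ifit2 (log2 fold change -2.68 ± 0.48, adjusted p = 0.00032) and Ifit3 (log2 fold change -2.51 ± 0.88, adjusted p = 0.041) lower. The Ifit3 call was lost without any 1 of the 6 control libraries compared but control TFH 3 (adjusted p from 6.9e-06 to 0.42 over 14 alternatives). With only the 6 control TFH and Tconv libraries fitted, Ifi47 and Gbp2 were called and none was higher, and without control Tconv 1 or control Tconv 2 the higher genes numbered 3.

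**Figure D4:**
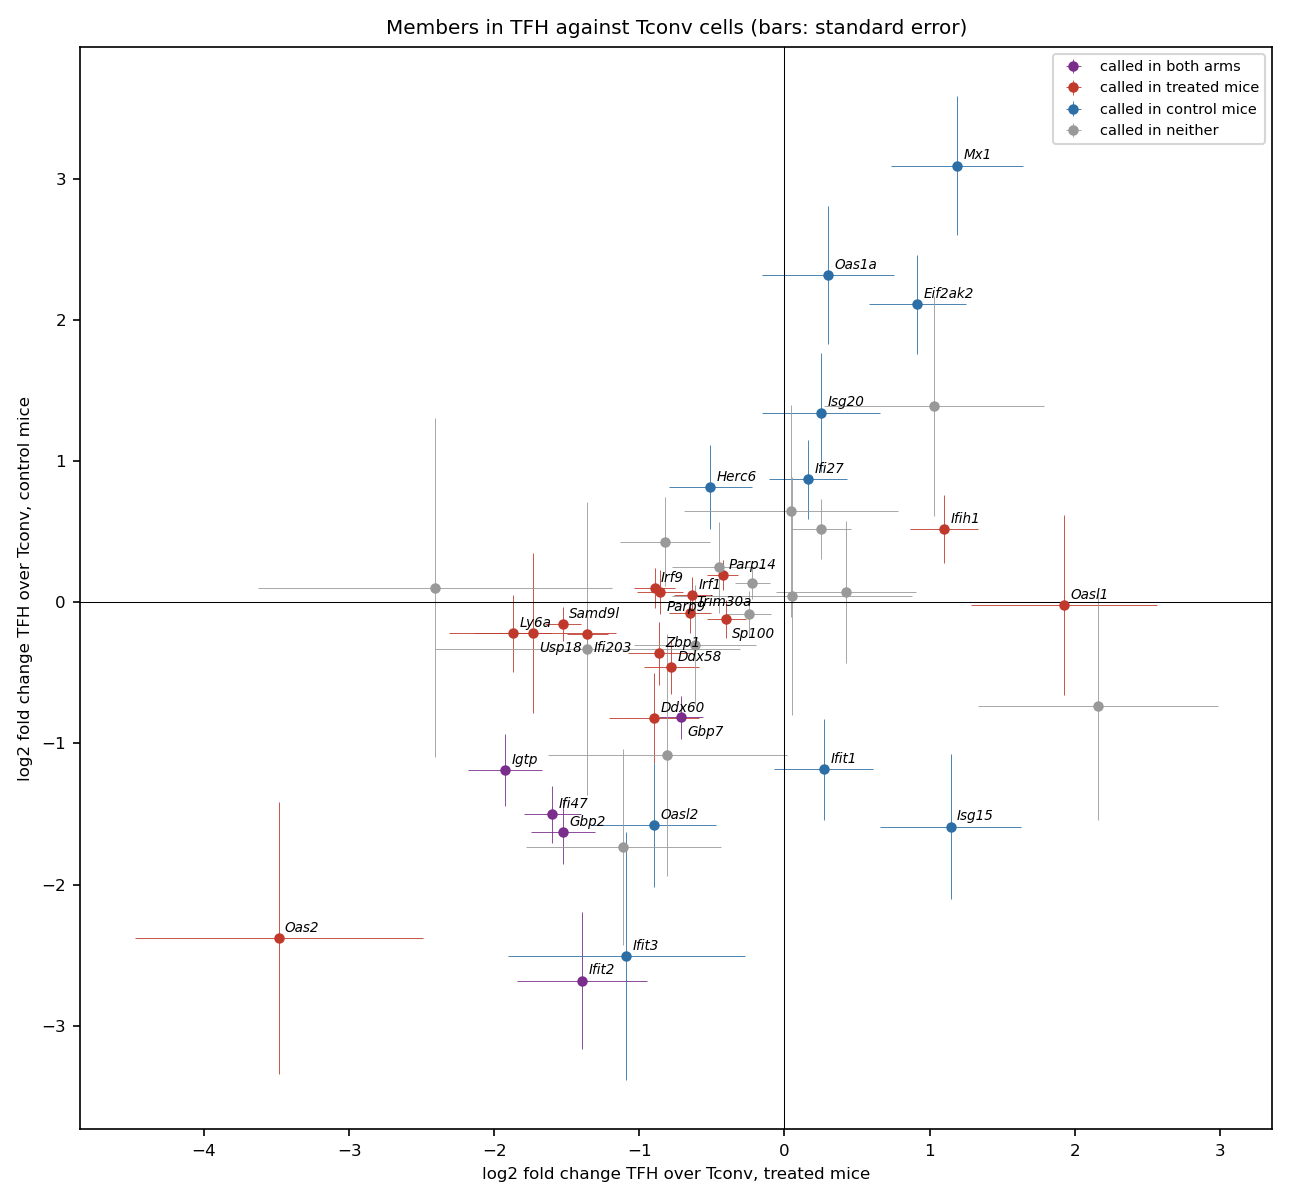
Log2 fold change of TFH over Tconv cells in treated mice (horizontal) against that in control mice (vertical) for 46 of the 47 genes, Oas1g having no read in control TFH libraries; bars are standard errors. Ifi47, Gbp2, Igtp, Gbp7 and Ifit2 lie in the lower left, called in both arms, and Samd9l, Ifi203 and Ly6a are lower in treated mice alone at about 0 on the vertical axis.

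Treg cells had more of a few effectors than Tconv cells in both arms. In treated mice 5 of the 47 genes were higher and 5 lower, against 6.37% and 5.54% of all genes, and in control mice 7 were higher and 1 lower, against 5.9% and 3.4%. With mitochondrial genes left out of the scaling the counts were 6 higher and 2 lower in treated, and 6 higher and 0 lower in control mice. In treated mice the higher genes numbered 3 without treated Tconv 2, treated Tconv 3 or treated Treg 2, and the lower ones 2 or 3 without any 1 of the 6 libraries. Without control Tconv 1 or control Treg 1 the higher genes of control mice numbered 4, and without the 5 libraries with podocyte transcripts 0. Eif2ak2, which encodes PKR, the kinase that stops translation on sensing double-stranded RNA, was at 31, 30.9 and 29.3 CPM in treated Treg, against 6.27, 6.05 and 4.82 CPM in treated Tconv libraries (log2 fold change 2.41 ± 0.35, adjusted p = 2.8e-05). In control mice it was at 14.3, 11.4 and 11.6 CPM in control Treg, against 2.54, 2.93 and 4.53 CPM in control Tconv libraries (log2 fold change 1.90 ± 0.34, adjusted p = 0.00059). Oas1a, Mx1, Parp14 and Gbp7 were higher in both arms too, with log2 fold changes of 1.74, 1.56, 0.43 and 0.95 in treated and 2.43, 1.58, 0.51 and 0.69 in control mice. The Oas1a call in treated mice was lost without treated Tconv 2, treated Tconv 3 or treated Treg 2 (adjusted p from 4.8e-08 to 0.088 over 14 alternatives), and the Mx1 call in control mice without control Tconv 1, control Tconv 3, control Treg 1 or control Treg 2 (adjusted p from 0.0047 to 0.26). The Mx1 call in treated mice was lost without treated Tconv 1, treated Tconv 2, treated Tconv 3, treated Treg 1, treated Treg 2 or treated Treg 3 (adjusted p from 2.6e-07 to 0.14 over 14 alternatives). Lower in treated Treg cells were Oasl2 (log2 fold change -1.44 ± 0.43, adjusted p = 0.031), Irf1 (log2 fold change -0.92 ± 0.13, adjusted p = 1.9e-05) and Ifi47 (log2 fold change -0.89 ± 0.19, adjusted p = 0.0026). The Oasl2 call was lost without treated Tconv 1, treated Tconv 2, treated Tconv 3, treated Treg 1, treated Treg 2 or treated Treg 3 (adjusted p from 4.5e-08 to 0.22 over 14 alternatives). Ddx58 was the gene lower in control Treg cells (log2 fold change -0.60 ± 0.19, adjusted p = 0.049). This call was lost without control Tconv 2, control Tconv 3, control Treg 1, control Treg 2 or control Treg 3 (adjusted p from 0.0032 to 0.15 over 14 alternatives).

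In the fit of all 24 libraries TFR cells differed from TFH cells in few members. In treated mice 4 of the 47 were higher and 2 lower, against 4.6% and 4.96% of all genes, and in control mice 3 were higher and 5 lower, against 7.82% and 8%, so most of these shares lay near the background. Gbp7, a guanylate-binding GTPase, was at 178, 201 and 202 CPM in treated TFR, against 75.1, 77.4 and 65.1 CPM in treated TFH libraries (log2 fold change 1.42 ± 0.15, adjusted p = 1.7e-06). It was at 188, 158 and 142 CPM in control TFR, against 54.2, 58.7 and 93 CPM in control TFH libraries (log2 fold change 1.23 ± 0.16, adjusted p = 2.7e-05). It stood above TFH in every TFR library of both arms. Ly6a was higher in TFR cells of treated mice (log2 fold change 1.43 ± 0.27, adjusted p = 0.00085) and lower in those of control mice (log2 fold change -1.16 ± 0.28, adjusted p = 0.0095), and Eif2ak2 was higher in both (log2 fold change 1.26 ± 0.34, adjusted p = 0.016 and log2 fold change 1.17 ± 0.34, adjusted p = 0.024). The Eif2ak2 call in treated mice was lost without treated TFH 2, treated TFH 3, treated TFR 2 or treated TFR 3 (adjusted p from 7.4e-05 to 0.22 over 14 alternatives), and that in control mice without control TFR 1, control TFH 1 or control TFH 2 (adjusted p from 0.00077 to 0.69). Sp100 (log2 fold change -0.64 ± 0.13, adjusted p = 0.0029) and Irf7 (log2 fold change -0.69 ± 0.16, adjusted p = 0.0052) were lower in treated TFR cells. In control mice Trim30a was higher (log2 fold change 0.91 ± 0.15, adjusted p = 0.00041), and Ifit3b and Oas2 had 0 reads in TFR against 112 and 51 reads in TFH libraries, all of them in control TFH 3. In treated mice 2 members were higher without treated TFH 3, treated TFR 2 or treated TFR 3. Fitting only the 6 treated TFH and TFR libraries gave 11 members higher and 9 lower, against 2320 and 2365 of all 16561 genes tested there. With only the 6 control TFH and TFR libraries fitted, Gbp7 alone passed the test. Without control TFH 3, 10 members were higher. Lower members numbered 8 without control TFR 3 or control TFH 2 and 3 without control TFR 1, control TFH 1 or control TFH 3.

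A chain of each interferon receptor, Ifnar1 and Ifngr1, fell in every subset. Of 13 receptor and signalling genes, 2 rose and 2 fell in Tconv, 0 and 4 in Treg, 1 and 6 in TFH, and 0 and 4 in TFR cells. The shares that rose were 15.4, 0, 7.69 and 0% in that order, against 6.89, 5.17, 16.5 and 15.6% of all genes. The shares that fell were 15.4, 30.8, 46.2 and 30.8%, against 3.05, 3.56, 5.86 and 6.39%. The median log2 fold change of the 13 was 0.10 in Tconv, -0.28 in Treg, -0.41 in TFH and -0.37 in TFR cells. Medians of all genes were 0.02, 0.09, 0.42 and 0.40 in the same order. The partner chain Ifnar2 fell in TFH and TFR cells, by log2 fold changes of -0.66 and -0.68, and did not pass the test in Tconv (0.38) or Treg cells (-0.28). Ifngr2 fell in Treg and TFH cells, by -1.39 and -1.26, and did not pass the test in Tconv (-0.52) or TFR cells (-0.44). Ifnar1, a chain of the type I receptor, was at 123, 149 and 150.2 CPM in treated TFR, against 296, 265 and 237 CPM in control TFR libraries (log2 fold change -0.92 ± 0.11, adjusted p = 2.7e-06). It fell in the other 3 subsets by log2 fold changes of -0.47 in Tconv, -0.62 in Treg and -0.90 in TFH cells, with no overlap in any. Ifngr1, a chain of the interferon-gamma receptor, fell in all 4 as well, and was at 280.4, 285 and 282 CPM in treated Tconv, against 754, 727 and 961 CPM in control Tconv libraries (log2 fold change -1.53 ± 0.11, adjusted p = 3e-09). Jak2, which serves the interferon-gamma receptor, fell in Treg, TFH and TFR cells, with 572, 577 and 465 CPM in treated TFH, against 1096, 1083 and 1058 CPM in control TFH libraries (log2 fold change -1.0 ± 0.09, adjusted p = 4.6e-08).

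**Figure D5:**
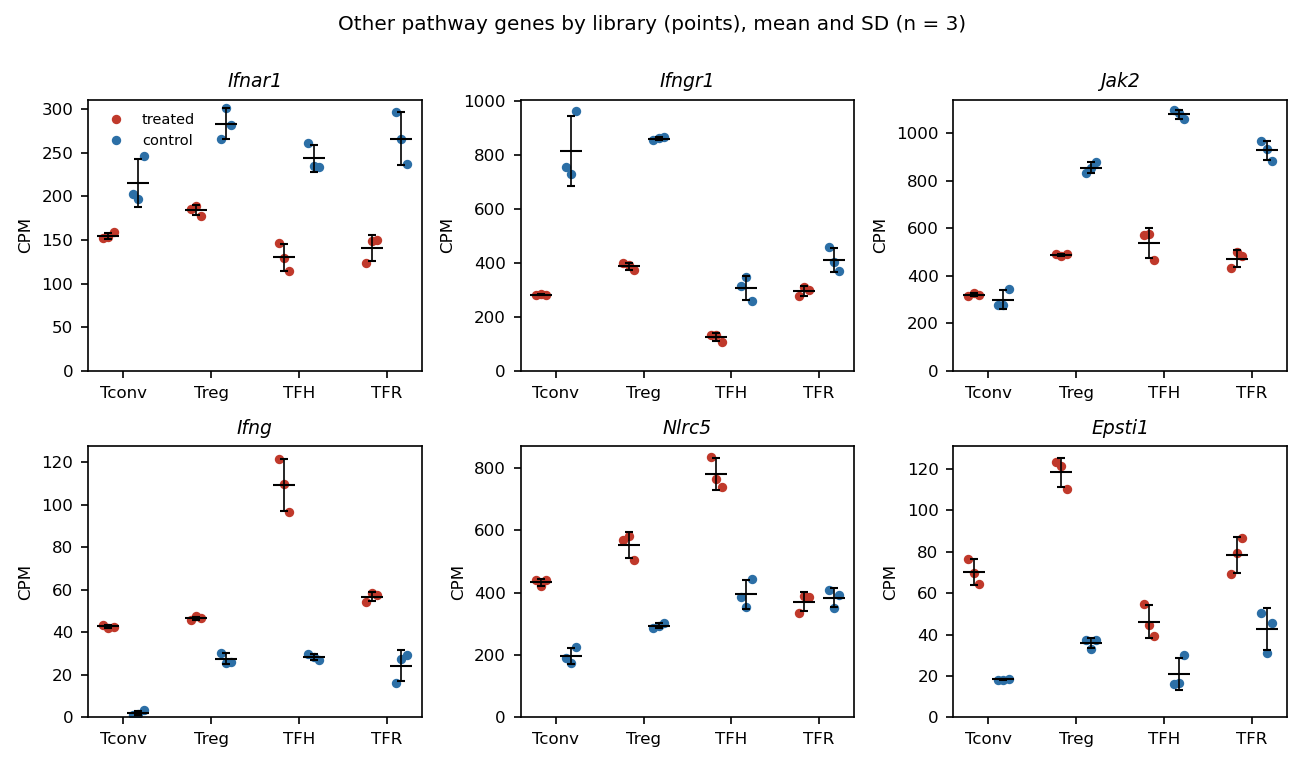
CPM of 6 further pathway genes in each library (points; bars: mean and SD, n = 3) by subset, treated left of control. Ifnar1 and Ifngr1 are lower and Ifng and Epsti1 higher in treated cells of every subset, Jak2 is lower in treated Treg, TFH and TFR cells, and Nlrc5 is higher in treated Tconv, Treg and TFH cells.

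Of 10 interferon ligand genes 3 passed the filter on low counts. Ifng, the ligand of the interferon-gamma receptor, rose in all 4 subsets, with 121, 109.7 and 96.8 CPM in treated TFH, against 29.9, 28.6 and 27 CPM in control TFH libraries (log2 fold change 1.94 ± 0.25, adjusted p = 7.4e-06), and log2 fold changes of 4.33 in Tconv, 0.76 in Treg and 1.23 in TFR cells. Ifnb1 had 121 reads in treated and 0 in control TFH libraries, at least 9.24-fold higher, and 75 in treated and 0 in control TFR libraries, at least 4.61-fold higher. Ifna2 had 72 reads in treated and 0 in control TFH libraries, at least 5.50-fold higher, and 35 in treated and 0 in control TFR libraries, at least 2.15-fold higher. These 4 differences passed the test (adjusted p = 0.022, 0.039, 0.019 and 0.044), at treated means of no more than 1.22 CPM. How these calls hold without single libraries was not tested. With 0 reads, the control TFH and TFR libraries could not carry these genes through the low-count filter. The direction of the 4 differences may therefore not be independent of that filter. Of plasmacytoid dendritic cells, which make much type I interferon, 6 markers summed to 59.7 to 109 CPM in treated and 11.2 to 80.5 CPM in control TFH libraries, and their defining marker Siglech was at 0 in every treated TFR and control TFH library and at most 0.26 CPM in any library.

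Of 45 other interferon response genes, 44 were tested. In Tconv cells 15 of these rose (34.1%, against 6.89% of all genes), with a median log2 fold change of 0.66 against 0.02 for all genes. In Treg cells 10 rose (22.7%, against 5.17%), with a median of 0.50 against 0.09. The follicular subsets lay nearer the background, with 10 higher in TFH (22.7%, against 16.5%) and 11 higher in TFR cells (25.0%, against 15.6%). Their medians of 0.40 in TFH and 0.22 in TFR cells were below the 0.42 and 0.40 of all genes. None fell but 2 in TFR cells. Epsti1, Rnf213 and Lgals3bp rose in all 4 subsets. Epsti1 was at 76.7, 69.8 and 64.4 CPM in treated Tconv, against 18.3, 18.3 and 18.5 CPM in control Tconv libraries (log2 fold change 1.94 ± 0.21, adjusted p = 6.1e-07). Of 12 antigen processing genes 7 rose in Tconv, 1 in Treg, 6 in TFH and 6 in TFR cells, and 2 fell, both in Treg cells. The shares that rose were 58.3, 8.33, 50 and 50%, against 6.89, 5.17, 16.5 and 15.6% of all genes. The 2 that fell make 16.7%, against 3.56%. Their median log2 fold change was above that of all genes in Tconv cells (0.46 against 0.02). It was slightly below in Treg (0.07 against 0.09), TFH (0.36 against 0.42) and TFR cells (0.37 against 0.40). Nlrc5, the activator of class I genes, was at 439, 421 and 441 CPM in treated Tconv, against 189, 176 and 225 CPM in control Tconv libraries (log2 fold change 1.14 ± 0.10, adjusted p = 3.4e-08). Of 11 other GTPases induced by interferon-gamma, 4 rose and 1 fell in Tconv, 3 and 0 in Treg, 0 and 1 in TFH, and 1 and 0 in TFR cells. The shares that rose were 36.4, 27.3, 0 and 9.09% in that order, against 6.89, 5.17, 16.5 and 15.6% of all genes. The share that fell was 9.09% in Tconv and in TFH cells, against 3.05% and 5.86% of all genes. Gbp4, Gbp8 and Gbp9 rose in Tconv and Treg cells.

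Among 7 negative regulators of the pathway 5 rose in Tconv, 1 in Treg, 3 in TFH and 3 in TFR cells, and none fell. These shares were 71.4, 14.3, 42.9 and 42.9% in that order, against 6.89, 5.17, 16.5 and 15.6% of all genes. Socs3, which blocks JAK kinases, was at 185, 191 and 176 CPM in treated Tconv, against 66.4, 61.3 and 79.6 CPM in control Tconv libraries (log2 fold change 1.41 ± 0.13, adjusted p = 4.8e-08). Of 13 nucleic acid sensors and adaptors, 12 of which were tested, 2 rose in each subset, and 1 fell in Tconv, 2 in TFH and 2 in TFR cells. The 2 that rose make 16.7%, which lay near the share of all genes in TFH (16.5%) and TFR cells (15.6%). That share was 6.89% in Tconv and 5.17% in Treg cells. The shares that fell were 8.33% in Tconv, 16.7% in TFH and 16.7% in TFR cells, against 3.05, 5.86 and 6.39% of all genes. Tmem173, which encodes STING, rose in all 4 subsets, with 132, 154 and 148 CPM in treated TFR, against 77.7, 84.9 and 58.7 CPM in control TFR libraries (log2 fold change 0.97 ± 0.20, adjusted p = 0.0012). Samhd1, a dNTP hydrolase that limits retroviruses, fell in Tconv, TFH and TFR cells, with 297, 342 and 341 CPM in treated TFR, against 611, 508 and 439.7 CPM in control TFR libraries (log2 fold change -0.67 ± 0.10, adjusted p = 6.7e-05).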

How the data were processed

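RNA of 24 libraries was prepared as total RNA after ribosomal RNA depletion, per the labels' protocols. The values are whole-number counts per gene in the authors' deposited table, made with STAR and featureCounts on mm10 per the submitters' processing notes. Versions, annotation and strand setting were not given in the sources used here, so overlapping and antisense genes are uncertain: 9 members share exon positions with a gene on the same strand and 11 with one on the other strand. The near copies Ifit3 and Ifit3b, Oas1a and Oas1g, and Gbp2 and Gbp7 can exchange reads. IDs were matched to GENCODE M21 without version suffix (38872 matched, 184 did not).

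The tests used edgeR 4.0.16 under R 4.3.3 on the counts (TMM factors, filterByExpr, quasi-likelihood test, two-sided). One model of 8 group means was fitted on all 24 libraries, with a spread per gene shared by all groups. P-values were Benjamini-Hochberg adjusted over 18789 genes in each comparison, with calls at an adjusted p under 0.05. Variation among libraries (edgeR's biological coefficient) was 0.075 for treated Tconv, 1.05 for control TFH and 0.62 for all groups in common. With only the libraries compared, higher members went from 19 to 32 in Tconv and 12 to 29 in Treg cells. They went from 9 to 4 in TFH and 14 to 5 in TFR cells. Call counts, and the lack of a call, therefore do not rank the responses of the subsets. What part the spread had was not tested. CPM are relative to the TMM-scaled library size. Errors of fold changes are standard errors. The fits were also run on simulated counts in which each gene had the same spread in every group. The groups of the data differ in spread, so that run is no check of the calls given here. Alternatives used DESeq2 1.42.0, other scalings and filters, thinned counts (added after the data were seen), subsets of libraries and a replicate block. Losses of single calls are given mainly for single libraries left out, and calls could also be lost under the other settings. The members and lists were chosen with earlier results of these data known. All members could be named. Values in every library were given for the 4 with the smallest p in each treatment comparison and for Isg15, Ifit1, Ifit3, Irf7, Irf1, Irf9, Stat2, Usp18, Mx1, Bst2, Ly6a, Ifi27, Igtp and Zbp1, with others where a result turned on them. Between subsets, the 3 called members with the largest fold in each direction and a mean of at least 5 CPM in the higher group were named, with further called members beside them. A gene of the pathway lists is not reported here.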

Additional observations from a re-analysis of the deposited data

Results flagged for a closer look

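For 12 of the 47 genes the treatment effect in TFH cells differed from that in Tconv cells by the test of the difference, with adjusted p-values from edgeR's quasi-likelihood test. The log2 effect in TFH minus that in Tconv cells was -1.37 for Samd9l (adjusted p = 2.7e-05), -1.14 for Ifi203 (adjusted p = 0.001), -1.0 for Irf9 (adjusted p = 0.0032) and -1.65 for Ly6a (adjusted p = 0.0072). It was -0.93 for Parp9 (adjusted p = 0.0093), -0.62 for Parp14 (adjusted p = 0.01) and -0.69 for Irf1 (adjusted p = 0.015). Herc6 differed by -1.33 (adjusted p = 0.031), Oas1a by -2.02 (adjusted p = 0.038) and Mx1 by -1.91 (adjusted p = 0.044). The difference was positive for Isg15, at 2.73 (adjusted p = 0.014), and for Ifit1, at 1.46 (adjusted p = 0.044). Several of these calls were lost on leaving out 1 library. Over 20 alternatives, the Ifit1 call was lost without any 1 of the libraries compared but control TFH 3 (adjusted p up to 0.32), and the Oas1a call without any but control TFH 1 and control TFH 3 (adjusted p up to 0.34). The Mx1 call was lost without any but control Tconv 2, control TFH 2 and control TFH 3 (adjusted p up to 0.34). The Herc6 call was lost without treated Tconv 1, 2 or 3, control Tconv 1 or 2, treated TFH 3, or control TFH 2 or 3 (adjusted p up to 0.44). Without the 5 libraries with podocyte transcripts Samd9l alone kept its call.

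For 8 genes the effect in TFR cells differed from that in Treg cells. The log2 effect in TFR minus that in Treg cells was -1.20 for Samd9l (adjusted p = 0.00023), -1.13 for Ifi203 (adjusted p = 0.0015) and -0.92 for Trim30a (adjusted p = 0.008). Eif2ak2 differed by -1.62 (adjusted p = 0.039) and Herc6 by -1.39 (adjusted p = 0.042). It was positive for Ly6a, at 1.49 (adjusted p = 0.019), for Irf1, at 0.69 (adjusted p = 0.024), and for Ifit3b, at 8.34 (adjusted p = 0.045). The Ifit3b value rests on control TFR libraries with 0 reads and depends on the prior count of the fit. Its call was lost without any 1 of the 12 libraries compared (adjusted p up to 0.22 over 20 alternatives). The Eif2ak2 call was lost without any but control TFR 2 and control TFR 3 (adjusted p up to 0.20), and the Herc6 call without any but control Treg 3 and control TFR 3 (adjusted p up to 0.24). The Irf1 call was lost without treated Treg 1, treated Treg 3, control Treg 1, treated TFR 2 or treated TFR 3 (adjusted p up to 0.076), and the Ly6a call without treated Treg 3 or control Treg 1 (adjusted p up to 0.10).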

How the results depend on the processing

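Counts of members are given as higher and lower in the first-named group. With DESeq2 they were 21 and 0 for treated against control Tconv, 17 and 1 for Treg, 16 and 5 for TFH and 14 and 5 for TFR cells. Between subsets DESeq2 gave 8 and 8 for Treg against Tconv, 6 and 21 for TFH against Tconv and 5 and 5 for TFR against TFH cells in treated mice, and 8 and 5, 7 and 12, and 5 and 6 for the same pairs in control mice. For the treatment effect in TFH minus Tconv it gave 3 and 13, and in TFR minus Treg 6 and 9. Fits of only the libraries of the groups compared gave 32 and 1 for treated Tconv, 29 and 5 for treated Treg, 4 and 1 in TFH and 5 and 2 in TFR cells. Between subsets they gave 18 and 20, 9 and 30, and 11 and 9 in treated mice, and 13 and 4, 0 and 2, and 1 and 0 in control mice, in the same order of pairs, with 5 and 11 for TFR minus Treg. Without the 5 libraries with kidney transcripts the treatment counts were 2 and 0 in Tconv, 7 and 0 in Treg, 8 and 2 in TFH and 12 and 1 in TFR cells. The subset counts were then 3 and 3, 1 and 12, and 2 and 1 in treated mice and 0 and 0, 1 and 5, and 2 and 4 in control mice, and those of TFH minus Tconv and TFR minus Treg 0 and 1, and 0 and 3. Other settings moved fewer counts by over 1.5 times. Relative log expression factors gave 5 lower for treatment in TFR cells. Leaving mitochondrial genes out of the scaling gave 0 lower for treatment in Treg cells, and 2 lower in treated and 0 lower in control mice for Treg against Tconv cells. With no low-count filter 3 were lower for TFR minus Treg. Libraries thinned to the smallest total, a setting added once the data had been seen, gave 3 lower for treatment in TFR cells, 3 higher in treated mice and 4 higher and 0 lower in control mice for Treg against Tconv cells, and 3 lower for TFR minus Treg.

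The sources used here do not give whether same-numbered libraries came from the same mice, and they were not treated as pairs. The correlation of deviations between same-numbered libraries ran from -0.886 to 0.794, and 3 of 30 pairs were over 0.1. Both extremes were between TFR and TFH cells of treated mice, where treated TFH 3 and treated TFR 1 held podocyte transcripts, so these correlations cannot settle the pairing. With the number as a replicate block the counts were 18 and 0 for treated Tconv, 11 and 1 for treated Treg, 10 and 2 in TFH and 12 and 1 in TFR cells. The block gave 1 higher for TFH against Tconv cells in treated mice, 0 lower for Treg against Tconv cells in control mice and 3 lower for TFR minus Treg.

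Leaving out 1 library at a time, the higher counts for treatment ran from 11 to 18 in Tconv, 6 to 10 in Treg, 9 to 14 in TFH and 8 to 14 in TFR cells, and the lower counts were 0 in Tconv, 0 in Treg, 2 to 4 in TFH and 1 to 2 in TFR cells. In treated mice they were 3 to 4 and 2 to 3 for Treg against Tconv, 1 and 14 to 16 for TFH against Tconv, and 2 to 4 and 2 for TFR against TFH cells. In control mice they were 4 to 5 and 0 to 1, 3 to 7 and 7 to 13, and 3 to 10 and 3 to 8. For TFH minus Tconv they were 1 to 8 and 7 to 12, and for TFR minus Treg 0 to 6 and 3 to 5. The treatment effect in TFH cells changed sign for Ifit3b without control TFH 3 and for Ifi44 without control TFH 1. Over the libraries left out, the log2 fold change ran from -0.83 to 9.08 for Ifit3b and from -1.85 to 6.95 for Ifi44, and neither passed the test with all libraries. The cause of these changes was not tested. Over all alternatives, not only single libraries left out, 3363 other values of single members kept their call or lack of one, 504 lost and 101 gained the call. The direction of values without a call was not compared. The control TFH and TFR libraries, at 2.54 to 15.2 M counts, limit what could be detected among low genes of those cells.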

Other observations

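Members differed between libraries of control Tconv cells along the split of podocyte transcripts in both directions. The median of the 47 centred values was -0.24 and -0.27 in control Tconv 1 and 2, against 0.00 in control Tconv 3. Irf1 was at 431 and 433 CPM in control Tconv 1 and 2, against 525 CPM in control Tconv 3. Samd9l was at 213 and 212 CPM in control Tconv 1 and 2, against 276 CPM in control Tconv 3. Rsad2, Cmpk2 and Mx2 went the other way. Rsad2, which encodes viperin, was at 14.8 and 15 CPM in control Tconv 1 and 2, against 3.71 CPM in control Tconv 3. Its neighbour Cmpk2, a mitochondrial nucleotide kinase, was at 7.15 and 7.53 CPM in control Tconv 1 and 2, against 2.25 CPM in control Tconv 3. Mx2, a relative of Mx1, was at 8.46 and 6.42 CPM in control Tconv 1 and 2, against 3.33 CPM in control Tconv 3. Neither Rsad2, Cmpk2 nor Mx2 passed the test in a treatment comparison.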
